A study of Glycine max with 2 samples.

Results

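The nuclei described here were chosen by their RNA, as those in which UMIs (unique molecular identifiers, each standing for 1 captured RNA molecule) of Glyma.08G021700, Glyma.18G071400, Glyma.01G229600 and Glyma.02G277600 summed to at least 5 and to at least 20 per 10000 UMIs of the nucleus. The rule selected 315 of 8636 nuclei, or 3.65% (95% exact binomial interval 3.26 to 4.06). The nuclei came from whole seeds of the soybean cultivar Williams 82, a line with no introduced allele and no treatment, collected at the cotyledon stage and pooled. RNA and accessible chromatin (by ATAC, which cuts open DNA with a transposase) were each sequenced as 1 library, in an assay that puts the same barcode on both kinds of molecule from a nucleus, so all 8636 barcodes are shared by the libraries. Nuclei of 1 pool are not replicates of a condition, and no p-value was computed. All intervals are at 95% and cover counting error only.

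A dividing cell copies its DNA in S phase and separates the copies in mitosis. B-type cyclins accumulate shortly before mitosis and activate cyclin-dependent kinases, and CDC20 then activates the anaphase-promoting complex, the ubiquitin ligase that destroys those cyclins. Replication-dependent histones and the origin recognition complex belong to S phase and its preparation, and D-type cyclins act in G1. In a seed at this stage the embryo, the endosperm and the layers of the seed coat grow side by side, and cells divide in more than one of them.

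The RNA library held 39881831 UMIs and the ATAC library 112815563 fragments of the nuclei on the chromosomes, with medians of 2945.5 UMIs and 7787 fragments per nucleus. The selected nuclei were deeper than the rest, at a median of 4520 UMIs (range 576 to 51487), against 2893 in the 8321 other nuclei. For comparison, 606 other embryo nuclei were taken as unselected nuclei with at least 3 UMIs and at least 10 per 10000 of a list of 7 embryo markers, and their median was 2796 UMIs. The same limits on 8 endosperm and 15 seed coat epidermis markers were used to mark nuclei of those tissues. Shares of nuclei with a cyclin UMI were also taken at equal depth, and the part of depth in the other differences was not tested.

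The markers went against a reading of the selected nuclei as embryo nuclei only. The embryo list marked 88 of the 315 (27.9%, 23.1 to 33.2), against 7.28% of all other nuclei. The endosperm list marked 52 (16.5%), close to the 16.2% of other nuclei, and the seed coat epidermis list marked 72 (22.9%, 18.3 to 27.9), against 18.3% (17.5 to 19.2). The outer integument list marked 85 of the 315, against 55.4% of other nuclei, and the seed vasculature list marked 18 (5.71%), against 12.2%. Taking the embryo, endosperm and epidermis lists together, 75 selected nuclei were marked by the embryo list alone, 60 by the epidermis list alone and 45 by the endosperm list alone. Another 16 were marked by 2 of these lists, and 119 (37.8%) by none. The nuclei are therefore called here by the genes that chose them and not by a tissue. Endosperm markers were taken in part from earlier work on these libraries, so that list is not independent of them.

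**Figure D1:**
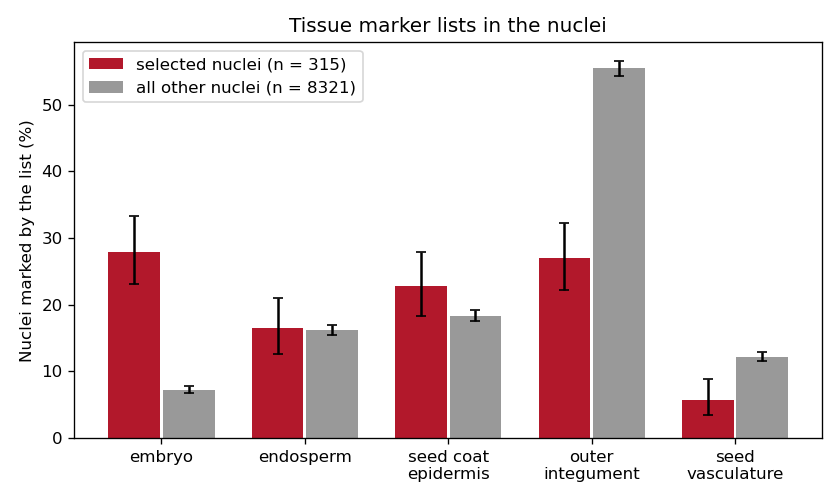
Share of nuclei marked by each of 5 tissue marker lists, in percent, for the 315 selected nuclei (red) and the 8321 other nuclei (grey), with 95% exact binomial intervals as error bars. The embryo list marked 27.9% of the selected nuclei and 7.28% of the others, while the endosperm list marked 16.5% and 16.2%.

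Rebuilding clusters from the RNA placed 195 of the 315 nuclei (61.9%) in 1 of 21 clusters, where they made up 85.5% of its 228 nuclei. That cluster carried 1976 counts of the embryo list per 1000000 UMIs (CPM), next to 535 CPM of the epidermis list and 187 CPM of the endosperm list. Other clusters high in the embryo list stood at 2439 and 1884 CPM of it, and the highest of the rest at 556 CPM. By its summed markers the cluster thus leaned to the embryo, though the embryo list marked only 98 of its 228 nuclei. The other selected nuclei were spread over other clusters, with 28 in a cluster high in the epidermis list (5592 CPM). A pair of clusters high in the endosperm list (2616 and 3068 CPM) held 22 and 16 of them. However, the cluster highest in the endosperm list (6119 CPM) held only 2 selected nuclei among its 352. Likewise, clusters at 4877 and 3902 CPM of the epidermis list held 0 among 623 nuclei and 1 among 162. The 4 genes were among those clustered, so their gathering in 1 cluster is a description.

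The 4 genes that chose the nuclei have no description in the sources used here. Summed over the 4, a selected nucleus held between 5 and 117 UMIs with a median of 19, or 20.0 to 183 per 10000 with a median of 38.9. Glyma.08G021700 was found in 98.7% of the selected nuclei and in 21.2% of the others, and its median level was 20.0 UMIs per 10000 with a highest value of 73.4. Glyma.18G071400 was found in 74.9% of the selected nuclei and in 5.12% of the others. Glyma.01G229600 was found in 75.2% and 7.23%, and Glyma.02G277600 in 88.6% and 11.9%. All 4 genes were found together in 186 selected nuclei (59.0%) and in 54 others (0.649%). These values restate the rule.

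The 315 nuclei held most of the library's UMIs for Glyma.18G071400 (66.2%) and Glyma.01G229600 (58.4%), and slightly under that for Glyma.08G021700 (46.6%) and Glyma.02G277600 (45.8%). At the limit, 15 selected nuclei had exactly 5 of these UMIs, and 9 nuclei with 4 UMIs passed the limit per 10000 but were left out. The 28 selected nuclei at 20 to 22 per 10000 had a B-type cyclin level of 387 CPM, and the 20 left out at 18 to 20 per 10000 had 212 CPM. The limits thus divide a continuous range of levels.

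**Figure D2:**
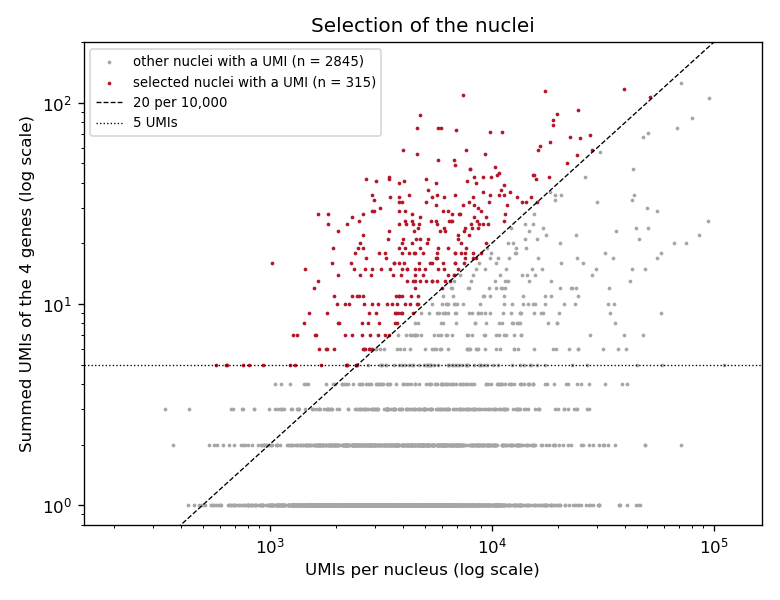
Summed UMIs of the 4 genes against UMIs per nucleus, both on log scales, for selected nuclei (red, n = 315) and for the other nuclei with at least 1 UMI of these genes (grey, n = 2845). The dotted and dashed lines are the limits of 5 UMIs and 20 per 10000, and points lie on both sides close to each line.

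The 3 B-type cyclin genes of the annotation held here, all given as CYCB2;3 after Arabidopsis, were each higher in the selected nuclei. Together they reached 615 CPM (581 to 651), against 73.7 CPM (63.0 to 85.7) in other embryo nuclei and 55.3 CPM in all other nuclei. The ratio to other embryo nuclei was 8.34 (7.10 to 9.86). Glyma.11G084500 was at 289 CPM and 29.1 CPM, Glyma.01G159700 at 205 CPM and 29.9 CPM, and Glyma.04G001100 at 121 CPM and 14.7 CPM. The intervals of the levels do not overlap between the groups for the summed list.

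At least 1 B-type cyclin UMI was found in 84.4% of the selected nuclei, in 15.2% of other embryo nuclei and in 16.4% of all other nuclei, and at least 2 in 69.5% of the selected nuclei. With every nucleus thinned to 1000 UMIs, which left out 6 selected nuclei, 13 other embryo nuclei and 383 of all other nuclei, the shares with at least 1 were 45.6% (40.0 to 51.4), 5.40% (3.72 to 7.53) and 5.51%. At 500 UMIs they were 29.2%, 4.29% and 2.89%, with no selected or other embryo nucleus and 27 of all other nuclei left out. The selected nuclei therefore stood above the others at equal depth too. No seed tissue that should lack these cyclins was available as a background, and the shares in the other nuclei can hold free RNA that the correction left.

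The gene with the largest annotated difference was Glyma.11G012400, CDC20.1 in Arabidopsis. It stood at 322 CPM (297 to 348) in the selected nuclei and at 9.10 CPM in other embryo nuclei, a ratio of 35.3 (22.9 to 57.5), and was found in 59.0% and 2.97% of their nuclei. Glyma.01G021200, annotated as a di-glucose binding protein with a kinesin motor domain, was at 247 CPM and 19.9 CPM, a ratio of 12.4 (9.15 to 17.2). It was the only one of the 5 kinesin genes detected widely enough to be compared (12 are listed) that differed by at least 2-fold. Over all 4127 genes compared, 10.1% were at least 2-fold higher and 2.45% lower.

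Genes of cytokinesis lay near the level of other embryo nuclei. PAKRP1 (Glyma.01G012700), a kinesin of the phragmoplast, the structure that lays down the new cell wall, had a ratio of 0.825 (0.677 to 1.00). MAP65-3 (Glyma.16G204300), which bundles phragmoplast microtubules, had a ratio of 1.09 (0.872 to 1.37). The 3 genes of the cytokinesis list together had a ratio of 0.932 (0.804 to 1.08), but of 1.39 (1.06 to 1.81) when only nuclei of the seed coat epidermis were compared. AUR3 (Glyma.01G145100), an aurora kinase, and APC2 (Glyma.01G051000), a subunit of the anaphase-promoting complex, had 0 UMIs in both groups, a count that allows up to 3 UMIs in the sum of either group and shows nothing of a difference.

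Genes of S phase and G1 differed among themselves. ORC6 (Glyma.01G046400), the only replication gene of the annotation held here, was at 25.3 CPM and 83.7 CPM, a ratio of 0.303 (0.217 to 0.416). The 6 D-type cyclins summed to 40.3 CPM and 63.7 CPM, a ratio of 0.633 (0.475 to 0.839). Within the embryo their ratio was 0.605 (0.352 to 0.986). The interval spanned 1 within the endosperm (0.741, 0.471 to 1.11) and within the epidermis (0.827, 0.328 to 1.74). It also did so against all other nuclei (0.907, 0.713 to 1.14). The 4 core histone genes summed to 301 CPM and 226 CPM, a ratio of 1.33 with an interval above 1, while the ratio was below 1 when nuclei of 1 tissue were compared. Of 107 cytosolic ribosomal protein genes, 78 were compared and 0 differed by at least 2-fold in either direction (10.1% higher and 2.45% lower over all genes compared), with a median ratio of 0.842 beside 0.978 over all genes compared.

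Across all genes found in at least 25% of the nuclei of either group, 4127 were compared, and 415 were at least 2-fold higher in the selected nuclei than in other embryo nuclei (10.1%), while 101 were at least 2-fold lower (2.45%). A gene could enter through the selected nuclei alone, and the 4 genes of the rule are among those higher, so these counts are descriptions of size. Against all 8321 other nuclei, 468 of 4110 genes were higher (11.4%) and 116 lower (2.82%). Only 532 of the 4127 genes have an annotation here, among them 92 of the 159 compared on chromosome 1. On chromosome 1, 17 of these 159 genes were higher and 4 lower, near the shares over all genes compared. Annotated ones included a chalcone synthase (Glyma.01G228700, ratio 4.37) and a pectin lyase-like gene (Glyma.01G209500, ratio 3.38). Also among them were MYB88 (Glyma.01G044300, ratio 2.55), which limits divisions of the stomatal lineage in Arabidopsis, and SUV2 (Glyma.01G010800, ratio 3.16), a part of the DNA damage response there. The part of tissue makeup in these ratios was not tested.

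The 15 genes with the highest ratios among those of at least 100 CPM lay between 17.2 and 64.0 times the level of other embryo nuclei. CDC20.1 is the only one with an annotation. Glyma.03G139500 led with 693 CPM and 10.8 CPM. Glyma.18G071400, one of the 4 genes of the rule, followed with 764 CPM and 18.6 CPM. Glyma.02G048700 was at 626 CPM and 33.0 CPM, Glyma.11G219600 at 589 CPM and 27.3 CPM, and Glyma.08G336300 at 447 CPM and 17.8 CPM. In other embryo nuclei each of the 15 was found in under 10% of nuclei.

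The 7 embryo markers were all at least 2-fold lower than in other embryo nuclei, which follows from the way that comparison group was made. The 5 genes with the lowest ratios, 0.215 to 0.266, included Glyma.01G137200, the homolog of the Arabidopsis organ polarity gene YAB1 and itself one of the markers, at 138 CPM and 525 CPM. In the same way, all 7 flavonoid genes compared, of 19 listed, were at least 2-fold higher than in other embryo nuclei. Over all genes compared, 10.1% were higher and 2.45% lower. The flavonoid list was chosen after its genes were seen. TT8 (Glyma.02G147800), a regulator of seed coat pigment in Arabidopsis, was at 327 CPM and 69.4 CPM. Inside the seed coat epidermis the same gene was at 1238 CPM in selected and 1348 CPM in other nuclei. The whole flavonoid list had a ratio of 0.700 (0.680 to 0.720) there, of 0.791 (0.693 to 0.899) inside the embryo and of 0.455 (0.392 to 0.526) inside the endosperm, against 3.26 for all selected over other embryo nuclei.

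Selected nuclei marked by 1 tissue list alone were next set beside unselected nuclei marked by that list alone, 75 against 515 for the embryo, 45 against 1210 for the endosperm and 60 against 1409 for the seed coat epidermis. No nucleus stands in more than 1 of these 3 comparisons, but all come from 1 library and 1 rule. Each tissue's own marker list, when summed, differed by less than 2-fold. Of the 15 epidermis markers, 1 was at least 2-fold lower in the selected epidermis nuclei, beside 1.74% of all genes compared there. The embryo list was at 3542 CPM in selected and 3235 CPM in other embryo nuclei, the endosperm list at 3426 CPM and 4191 CPM, and the epidermis list at 3095 CPM and 3859 CPM. The genes of embryo regulators, at 3277 CPM and 3018 CPM, and those of a list from laser-captured globular embryo proper, at 2318 CPM and 2351 CPM, also lay close together in the embryo. Both sets of nuclei of a tissue were chosen by its marker list, so their similar levels of that list follow from the choice.

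B-type cyclins were higher in the selected nuclei of all 3 tissues. They were at 652 CPM and 77.7 CPM in the embryo, a ratio of 8.39 (6.87 to 10.3). In the endosperm they were at 428 CPM and 68.8 CPM, a ratio of 6.22 (5.17 to 7.44), and in the seed coat epidermis at 591 CPM and 47.5 CPM, a ratio of 12.4 (10.5 to 14.7). The ratio of the endosperm lay below that of the epidermis, with intervals that do not overlap.

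CDC20.1 (Glyma.11G012400) was at 313 CPM and 7.61 CPM in the embryo, at 374 CPM and 36.5 CPM in the endosperm, and at 280 CPM and 10.1 CPM in the seed coat epidermis. Its level in unselected nuclei was thus highest in the endosperm. The kinesin Glyma.01G021200 had ratios of 8.52 in the embryo, 13.6 in the endosperm and 13.8 in the epidermis. ORC6 (Glyma.01G046400) had ratios of 0.342, 0.467 and 0.513, and the core histones 0.548 (0.408 to 0.723), 0.734 (0.540 to 0.976) and 0.913 (0.797 to 1.04), in the same order. Selected nuclei of the embryo and endosperm thus held lower histone CPM than other nuclei of their tissue, and in the epidermis the interval spans 1.

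Of the 15 leading genes, 15 were at least 2-fold higher in the embryo, 14 in the endosperm and 15 in the seed coat epidermis. The exception was Glyma.15G243000, at 13.4 CPM and 7.91 CPM in the endosperm but at 303 CPM in the epidermis, 15.1 times its level in other nuclei there. The selected endosperm nuclei held 374168 UMIs in all, so the 13.4 CPM rests on few UMIs. Glyma.03G139500 varied most between tissues in the selected nuclei, with 39.1 CPM in the embryo, 1596 CPM in the endosperm and 768 CPM in the epidermis. Its unselected nuclei were at 10.3, 52.8 and 20.7 CPM. The other 13 were of 1 order of size across tissues, as Glyma.02G048700 with 504 CPM in the embryo, 607 CPM in the endosperm and 596 CPM in the epidermis. The 15 genes, 1 of them a gene of the rule, were chosen by ratios that included these same selected nuclei. Their counts past 2-fold thus follow in part from the choice. Over all genes compared in the 3 tissues, the shares higher were 7.74%, 8.24% and 10.3%.

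**Figure D3:**
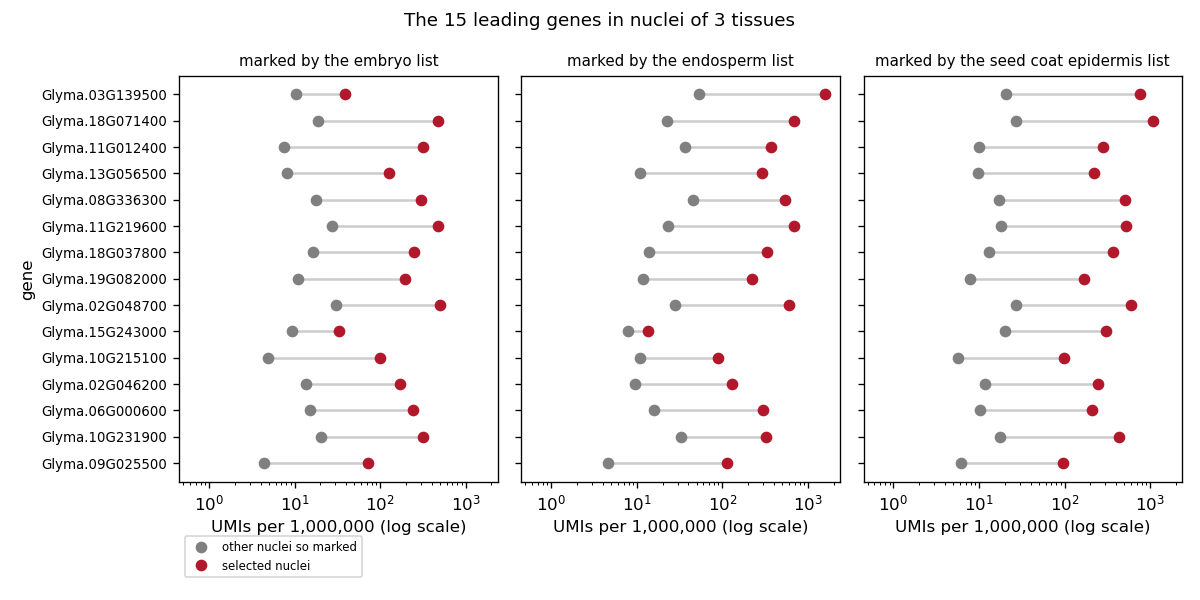
Levels of the 15 leading genes, in UMIs per 1000000 on a log scale, in selected nuclei (red) and unselected nuclei (grey) marked by the embryo, endosperm or seed coat epidermis list alone, without error bars. Glyma.15G243000 in the endosperm is the only pair closer than 2-fold, and Glyma.03G139500 stands at 39.1, 1596 and 768 in the selected nuclei of the 3 tissues.

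Taken alone, the embryo comparison had 7.74% of its genes at least 2-fold higher and 0.791% lower, the endosperm comparison 8.24% and 2.97%, and that of the epidermis 10.3% and 1.74%. Among the 2909 genes that could be compared in all 3 tissues, 259 were at least 2-fold higher in selected nuclei of the embryo, 296 in those of the endosperm and 311 in those of the seed coat epidermis. A set of 227 genes was higher in all 3, which is 87.6%, 76.7% and 73.0% of the respective lists. The 4 genes of the rule are in that set, and a gene could enter each comparison through the selected nuclei alone. Only 1 gene was lower in all 3, of 31, 65 and 13. Since the same 4 genes chose the nuclei in each tissue, the share held in common describes what goes with those genes and is no test.

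Besides the 3 B-type cyclins, CDC20.1 and the kinesin Glyma.01G021200, the 227 genes held few with an annotated role. PI4K gamma 4 (Glyma.08G023600), a phosphoinositide 4-kinase homolog, was at 130 CPM and 12.5 CPM in the embryo. DRP1E (Glyma.17G151800), a dynamin-like protein of a family that acts in membrane traffic, was at 94.7 CPM and 21.7 CPM there. DGK5 (Glyma.06G254900), a diacylglycerol kinase, was at 338 CPM and 83.2 CPM. Outside that set, KRP7 (Glyma.11G056700), an inhibitor of cyclin-dependent kinases, was at 77.5 CPM and 34.5 CPM in the endosperm, a ratio of 2.24 (1.47 to 3.30). In the embryo it was at 2.06 CPM and 3.26 CPM, where the selected nuclei held a single UMI of it. The ratio was 0.631 (0.0137 to 5.20) in the embryo and 0.822 (0.0200 to 5.04) in the epidermis. Both of these intervals hold the endosperm ratio, so a difference between tissues is not shown.

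The 119 selected nuclei marked by none of the embryo, endosperm and epidermis lists were shallower, at a median of 3924 UMIs. They held the 4 genes of the rule at 4726 CPM and the B-type cyclins at 726 CPM (658 to 800), while their levels of the embryo, endosperm and epidermis lists were 233, 132 and 140 CPM. Their level of the outer integument list was higher, at 1618 CPM with a UMI in 72.3% of them, beside 4365 CPM in all other nuclei, and that of the seed vasculature list was 411 CPM, beside 501 CPM. The 16 nuclei marked by 2 lists had a median of 5939 UMIs and 595 CPM of B-type cyclins. Only 9 nuclei outside the selection and outside the embryo reached 3 UMIs and 10 per 10000 of the B-type cyclins. Their summed 4 genes stood at 732 CPM (441 to 1143), from 19 UMIs, against 199 CPM in all other nuclei, and they lie under the limits of the rule by definition.

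The ATAC library was not used by the rule. The selected nuclei had a median of 15091 fragments (quartiles 6268 and 25828), other embryo nuclei 11437 and all other nuclei 7624. Within tissues the medians were 20407 and 11357 in the embryo, 19898 and 12166 in the endosperm, and 11154 and 8413 in the seed coat epidermis. The quartiles of selected and other nuclei overlap in each tissue. Among nuclei with 2000 to 6000 UMIs the ratio of the selected to other embryo nuclei was 0.947 in place of 1.32, and that window also changed the makeup of the groups, with 175 selected nuclei of which 9.71% were marked as endosperm. The part of RNA depth in the difference was not tested. The median share of fragments in peaks was 82.9% in selected and 84.0% in other embryo nuclei.

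**Figure D4:**
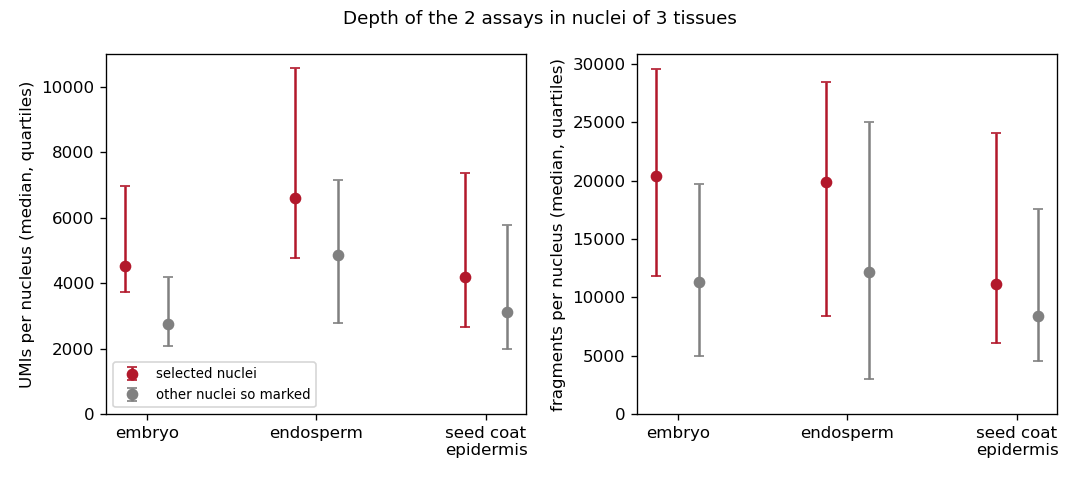
Median UMIs (left) and median ATAC fragments (right) per nucleus, with quartiles as bars, in selected nuclei (red) and unselected nuclei (grey) marked by 1 tissue list alone. The selected nuclei are deeper in both assays in all 3 tissues, with overlapping quartiles for fragments, as at 20407 against 11357 in the embryo.

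Loci covered by 3 or more fragments of a nucleus were counted because a diploid nucleus has a pair of copies of each locus before S phase and more after it, while endosperm nuclei have an additional genome. With nuclei thinned to 5000 fragments, which left out 68 selected and 149 other embryo nuclei, the mean number of such loci was 4.89 in selected and 3.79 in other embryo nuclei, with medians of 2 and 1. Inside the embryo the means were 2.96 and 3.27, inside the endosperm 7.58 and 5.40, and inside the seed coat epidermis 6.83 and 5.84. At 1000 fragments the ratio of means was 0.210, but both medians were 0, the shares of nuclei with any such locus were 4.38% and 4.80%, and 1 nucleus among the other embryo nuclei held 45 loci. At 5000 fragments the direction of the ratio of means thus differed between tissues. At 3000 fragments selected nuclei had the higher mean in the embryo (1.46 and 1.22) and the endosperm (2.38 and 1.91). The same held in the epidermis (1.80 and 1.65). At 1000 fragments they had the lower mean in each of these tissues, so the direction also changed with depth.

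Of 81539 peaks with at least 20 fragments in the groups compared, 3042 were at least 2-fold more open in the selected nuclei than in other embryo nuclei (3.73%) and 3761 less open (4.61%). Against all other nuclei the shares were 2.3% and 10.1%. Within tissues they were 2.01% and 7.47% in the embryo, 5.47% and 20.5% in the endosperm, and 3.9% and 16.3% in the epidermis. Of 66390 peaks that could be compared in all 3 tissues, 1246 were more open in selected nuclei of the embryo, 2168 in those of the endosperm and 1864 in those of the seed coat epidermis. A set of 49 was more open in all 3, or 3.93%, 2.26% and 2.63% of these lists. Counts per peak are small, and the genes near the peaks were not analysed here. A peak could enter through the larger group alone, and with no fragment in the smaller group it counts as less open there. The groups differed widely in size, as with 45 and 1210 nuclei in the endosperm. The part of group size in the shares of less open peaks was not tested.

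The 15 leading peaks are those of the highest ratio to other embryo nuclei with at least 100 fragments in the selected nuclei. Of these, 3 were among the 49, on chromosomes 10, 1 and 9. The first of these had the second highest ratio and lies on chromosome 10 at 38928293 to 38930727 (assembly Wm82.a2.v1). Per 1000000 of a group's fragments in peaks, it stood at 32.1 in the selected nuclei and 7.61 in other embryo nuclei. The ratio of this peak was 4.21 (3.10 to 5.80). Its values in selected and other nuclei were 25.6 and 7.27 in the embryo, 46.1 and 9.15 in the endosperm, and 37.6 and 8.95 in the seed coat epidermis. The peak on chromosome 1 at 55456134 to 55458733 had 35.0 and 11.7, 47.5 and 16.6, and 30.3 and 11.9 in the same order, and that on chromosome 9 at 40619473 to 40621308 had 22.2 and 7.27, 21.1 and 10.4, and 19.9 and 4.29. By contrast, the peak with the highest ratio, on chromosome 19 at 11107903 to 11109254, followed a tissue. It stood at 113 and 71.0 in the endosperm, at 2.70 and 5.37 in the embryo and at 0 and 3.67 in the epidermis. Several others of the 15 were highest in the epidermis, at similar levels in selected and other nuclei there. Peaks on chromosome 18 at 49504638 and 54733641 stood at 76.3 and 75.9 and at 114 and 110 in the epidermis. A peak on chromosome 14 at 6598109 stood at 53.3 and 53.9 there.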

How the data were processed

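Nuclei of pooled seeds gave 1 RNA and 1 ATAC library. The authors processed the reads with Cell Ranger ARC 1.0 and SoupX was then run by the authors to subtract free RNA. What they deposited for RNA are UMI counts of 56044 genes in each nucleus, as whole numbers and not normalized. The deposited ATAC data are fragments, with counts of the read pairs behind each, and 119743 peaks over the library; the sources used here do not give the peak caller. Some free RNA can remain.

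Levels are counts per 1000000 UMIs of a group (CPM), and ratios are of these. CPM have exact Poisson, shares exact binomial (Clopper-Pearson) and ratios conditional exact binomial intervals at 95%. Genes in at least 25% of either group and peaks with at least 20 fragments were called at 2-fold. Clusters were rebuilt in Seurat 5.3.0 (30 principal components, resolution 1), the rest was done with scipy 1.17.1, pandas 2.3.3 and numpy 2.4.6 in Python 3.11.15, and the code was tested on simulated data. Scrublet in scanpy 1.11.5 called 0 doublets at its own threshold, so its calls were not used and doublets were kept.

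The members and gene lists were chosen with earlier results of these data known. Lists planned by RefSeq description could not be made, so they were built from the Arabidopsis annotation in the study's tables, which covers part of the genome; those for A-type cyclins, B-type kinases, linker histones and E2F or MYB3R factors held no gene. Named genes are the 4 rule genes, the 15 highest (at least 100 CPM) and 5 lowest ratios, and genes of the tissue and cell cycle lists; others, chosen after their values were seen, are annotated genes of chromosome 1 or of the 227 shared genes, and the leading peaks. Comparisons within tissues, the flavonoid list and the bins left out were added after seeing the data. Promoter motifs and sequences were not analysed here.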

Additional observations from a re-analysis of the deposited data

How the results depend on the processing

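Of 167 repeats of 13 results under other settings, 108 stayed within their limits (1.5 times a count, the interval of a share or of the cyclin ratio, and a tolerance of 10% set by hand for the ATAC ratios, which have no spread between libraries), 55 moved and 4 reversed. The cause was not tested. Comparisons within tissues and the loci without recurrent bins were added after seeing the data. The B-type cyclin ratio stayed above 6 and the counts of higher genes kept their order over lower ones in every repeat.

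With limits of 3 UMIs and 10 per 10000 the rule took 547 nuclei, of which 22.5% were marked as embryo and 54.3% had 2 or more B-type cyclin UMIs; the ratio of fragments to other embryo nuclei was 1.10, that of loci with overlapping fragments 1.62, and 4608 peaks were higher. With limits of 10 UMIs and 40 per 10000 it took 132 nuclei, 9.85% of them marked as endosperm and 84.8% with 2 or more cyclin UMIs, with 179 lower genes, a fragment ratio of 1.05 and 7656 lower peaks. Without Glyma.08G021700 the rule took 133 nuclei, 82.7% with 2 or more cyclin UMIs, with a cyclin ratio of 6.60, 162 lower genes, a loci ratio of 1.61 and 7645 lower peaks. Without Glyma.01G229600 the cyclin ratio was 6.80 and the fragment ratio 1.10, and without Glyma.02G277600 the loci ratio was 1.14.

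With only the selected nuclei marked as embryo, 41 genes were lower, 77.3% had 2 or more cyclin UMIs, 1308 peaks were higher, the fragment ratio was 1.82 and the loci ratio reversed to 0.745. Without the 6% of nuclei with the highest doublet scores the fragment ratio was 1.13. Among nuclei of 2000 to 6000 UMIs, 175 were selected, 9.71% marked as endosperm and 62.3% with 2 or more cyclin UMIs; the cyclin ratio was 14.9 and the fragment ratio reversed to 0.947. With other embryo nuclei from rebuilt clusters the loci ratio was 1.604, and with stricter limits, which left 342 of them, it was 1.47 with 163 lower genes.

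At 4-fold, 230 genes were higher and 2 lower, and 218 peaks were higher and 242 lower. With detection in 10% of nuclei, 1039 genes were higher and 480 lower. With at least 50 fragments per peak, 1104 peaks were higher and 1304 lower. The loci ratio reversed to 0.210 at 1000 fragments, where both medians were 0, and was 1.51 without recurrent bins. Thinned to 500 and to 1000 UMIs, 5.08% and 17.8% of selected nuclei had 2 or more cyclin UMIs.

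Within the embryo 40 genes were lower, the fragment ratio was 1.80, the loci ratio reversed to 0.903 and 1378 peaks were higher. Within the endosperm 204 genes were lower, the cyclin ratio was 6.22, the fragment ratio 1.64, and 5099 peaks were higher and 19128 lower. Within the seed coat epidermis the cyclin ratio was 12.4 and 13913 peaks were lower.

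No paired analysis was possible because each assay has 1 library. Counting cut sites in place of overlaps, and promoter motifs, were not run. With 1 pool of seeds nothing here speaks to variation between plants, and annotation covers few of the genes compared.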

Other observations

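Nuclei with the highest doublet scores included 41 of the 315 selected nuclei and 5.73% of all other nuclei, at a limit that took the top 6% of the library (518 nuclei). The selected nuclei were also deeper in RNA, and the part of depth in these scores was not tested.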
